A study of Mus musculus with 11 samples.

Results

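Infarcted, solvent-treated hearts were compared with sham-operated hearts, using 7 of the 11 RNA-seq libraries of the series, chosen by their labelled treatment. The 4 MI mice, A105, A127, A128 and A129, were female C57BL/6J mice of 8 weeks that underwent permanent ligation of the left anterior descending coronary artery (LAD) and then received DMSO, the solvent of the ADAM10 inhibitor GI254023X (A10i), from an osmotic minipump. The 3 sham mice, S1, S2 and S3, had the same strain, sex and age, had a sham operation and are labelled as given DMSO. None of the 7 mice is labelled with a transgene or deletion. The 4 MI libraries of mice given A10i were not compared here. Hearts were taken 3 days after surgery. The tissue is labelled as infarct border zone for the MI libraries and as healthy tissue for the sham libraries. The study describes the MI libraries as infarct with border zone, and its sham hearts, for protein blots, as processed in a similar way. The comparison asks which transcripts and functions differ in the infarcted heart wall, by how much, and how alike the mice are.

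Permanent LAD ligation deprives part of the left ventricular wall of blood, and the cardiomyocytes there die. Neutrophils enter first, monocytes follow and become macrophages that clear debris, and fibroblasts then turn into contractile, collagen-secreting myofibroblasts that build the scar. Surviving cardiomyocytes at the border are known to switch on a fetal gene programme that includes the natriuretic peptides, and to lower genes of contraction and mitochondrial energy supply. Day 3 lies where the inflammatory phase passes into the proliferative phase of this repair.

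Reads were counted per gene by the authors, and the total over genes ran from 22651265 to 29511768 counts per library. Levels are given below as CPM, the gene's count scaled to a common library total after edgeR's trimmed mean of M-values (TMM) correction, and they are listed in the order S1, S2, S3 for sham and A105, A127, A128, A129 for MI. Changes are log2 fold changes of MI over sham with their standard error (SE). Genes were tested where enough of their libraries passed a filter on low counts, and a gene near 0 in sham passed it only through the MI mice, so that it had to be higher there. Many lists with such members are therefore given by the members that passed in sham alone as well. Where this is not done, the counts and medians include any such members. A gene is called higher or lower where edgeR's two-sided quasi-likelihood F-test gave a Benjamini-Hochberg adjusted p below 0.01 over all 17117 genes tested. Cardiomyocyte transcripts were abundant in every library, with 36903, 38309 and 37577 CPM of Myh6, the adult heart myosin, in the sham mice and 19973, 17484, 14989 and 13390.1 CPM in the MI mice.

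The response reached a large part of the expressed genome. After MI, 2215 of 17117 genes were called higher (12.9%) and 1643 were called lower (9.6%), and the counts of each gene list below are to be read against these shares. Increases were larger than decreases: the median log2 fold change was 1.01 among the genes called higher and -0.68 among those called lower, beside 0.00 over all genes tested. The change was more than 4-fold for 462 of the higher genes and for 53 of the lower genes, and more than 8-fold for 223 and 8. Among 13700 protein-coding genes 1921 were called higher and 1455 lower, whereas among 1407 long noncoding RNAs 49 were higher and 139 lower. All 3858 called genes had levels that did not overlap between the groups, as did 8344 genes in all, 48.7% of those tested. With library size alone as the scaling, which moved the median of all genes by 0.21, 3330 genes were called higher and 708 lower, so that higher genes made up 82.5% of the calls in place of 57.4%. The counts also rest on the 3 sham mice, since 977 genes were called higher and 565 lower without S1, 922 and 603 without S2, and 939 and 601 without S3. These counts were similar whichever sham mouse was left out, and a test with fewer mice is weaker. A gene no longer called without a sham mouse therefore need not depend on that mouse.

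**Figure D1:**
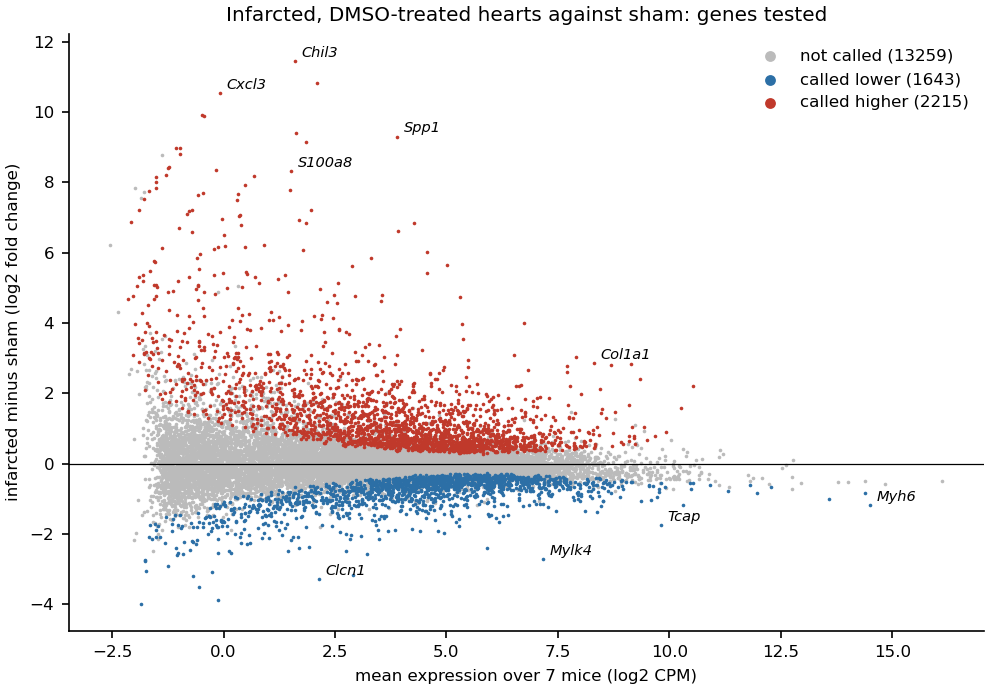
Log2 fold change of MI over sham for each of the 17117 genes tested (vertical axis) against its mean log2 CPM over the 7 libraries (horizontal axis), with genes called higher and lower in colour. The 2215 higher genes reach far beyond 8-fold, mostly at low and middle levels, whereas the 1643 lower genes stay closer to 0 and extend to the most abundant transcripts.

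The MI mice were less alike than the sham mice. The median over genes of the SD of log2 CPM was 0.103 among the sham mice and 0.214 among the MI mice, and it was wider in the MI mice for 13487 of 17117 genes. The leading log2 distance, the root mean square difference over the 500 genes that differ most, was 1.36 to 1.43 between sham mice, 1.51 to 2.21 between MI mice and 3.23 to 4.06 between mice of different groups. The first principal component of the 500 most variable genes held 89.0% of the variance, with the sham mice at -25.8 to -26.8 and the MI mice at 15.6 (A105), 16.8 (A127), 16.5 (A128) and 30.6 (A129). A129 thus lay farthest from sham. It had the highest level of the MI mice for 1636 of the 2215 higher genes and the lowest for 957 of the 1643 lower genes, and its median log2 distance from the sham mean over the higher genes was 1.27, against 0.85 to 0.93 in the other MI mice. The second component, 6.00% of the variance, placed A105 at -13.2 and the other MI mice at higher values, among them A129 at 6.81. What the mice differed in, such as infarct size or the piece of tissue taken, was not given and its part in these values was not tested.

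**Figure D2:**
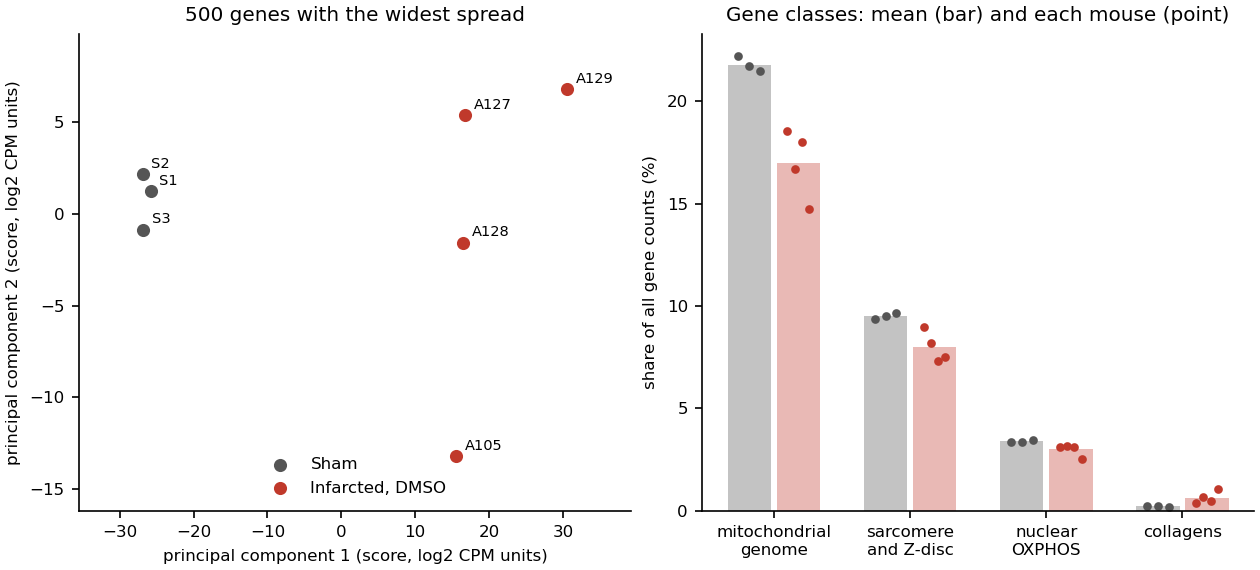
Positions of the 7 mice on the first and second principal component (scores in log2 CPM units) and the share of counts (percent) taken by gene classes in each mouse. The sham mice lie together at about -26 on the first component, and A129 lies apart from the other MI mice at 30.6.

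Broad shifts in the make-up of the RNA accompanied these changes. Transcripts of the mitochondrial genome took 21.8% ± 0.365 (SD, n = 3) of counts in sham and 17.0% ± 1.69 (SD, n = 4) after MI (two-sided exact permutation test over 35 ways, p = 0.0286, adjusted p = 0.0666 over 7 classes). Collagens took 0.213% in sham and 0.648% after MI (exact permutation p = 0.0571, adjusted p = 0.0666), and cytosolic ribosomal proteins 0.351% and 0.547% (exact permutation p = 0.0286, adjusted p = 0.0666). Sarcomere and Z-disc genes took 9.53% and 8.00% (exact permutation p = 0.0571). The 100 most abundant sham genes went from 43.9% to 34.9% of counts. They were chosen by their sham level, which favours a fall, so that no p is given for them. The smallest p this design allows is 0.0286, and after adjustment each of the classes given with a p is at 0.0666, above 0.05. In tissue as a whole, fewer cells of a type and less RNA per cell cannot be told apart, and this holds for each result below.

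The natriuretic peptide genes and the genes of the study's own hypothesis come first. Nppb, which encodes brain natriuretic peptide, a hormone released by stretched ventricular muscle, lies on chromosome 4 (147985788 to 147987205, mm10) and was at 74.5, 79.2 and 74.8 CPM in sham and 1129.8, 423, 367 and 586 CPM after MI. Every MI mouse was well above every sham mouse, and A105 was highest. Nppb rose 8.22-fold (log2 fold change 3.04 ± 0.39 (SE), adjusted p = 0.000644). Nppa, the atrial natriuretic peptide gene next to it on the same strand (148000722 to 148002079), was at 149, 91.9 and 199.9 CPM in sham and 1187, 874, 454 and 1563 CPM after MI and rose (log2 fold change 2.80 ± 0.43 (SE), adjusted p = 0.00152). Atrial marker transcripts, which were low, summed to 16.7 to 33.8 CPM in sham and 23.9 to 105.6 CPM after MI, and the share of atrial tissue in the Nppa value was not tested. Nppa was no longer called without S1 (adjusted p = 0.0124).

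Adam10, the membrane protease that the study inhibits in other mice, was at 56.6, 58.2 and 53.7 CPM in sham and 55.6, 69.4, 59.1 and 91.8 CPM after MI. A105 lay within the sham range and A129 was highest, the groups overlapped and Adam10 was not called (log2 fold change 0.30 ± 0.16 (SE), adjusted p = 0.164). Cx3cl1, a membrane-bound chemokine that ADAM10 can shed, was at 6.73, 6.64 and 6.19 CPM in sham and 9.82, 13.3, 11.5 and 18.8 CPM after MI, with all MI mice above all sham mice, and rose 2.05-fold (log2 fold change 1.03 ± 0.21 (SE), adjusted p = 0.00404). Cx3cl1 was no longer called without S1, S2 or S3 (adjusted p up to 0.023). Cx3cl1 also missed the threshold without A127 (adjusted p = 0.0107).

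Neutrophil transcripts were near 0 in sham and present in every MI mouse. Of 18 listed neutrophil markers 11 passed the filter, 8 of them only through the MI mice, and the other 3 were called higher (median 4.23). S100a8 and S100a9, which encode the paired calcium-binding alarmins of neutrophil cytoplasm and sit side by side on chromosome 3 (90668978 to 90670035 and 90692632 to 90695721), were barely detected in sham. S100a8 was at 0.128, 0.0734 and 0.0397 CPM in sham and 25.4, 18.3, 32 and 30.9 CPM after MI (log2 fold change 8.31 ± 0.37 (SE), adjusted p = 1.07e-05). S100a9 was at 0.256, 0.0734 and 0.278 CPM in sham and 32.1, 20.1, 34.6 and 33.9 CPM after MI, and A127 was the lowest MI mouse for both. S100a8 and S100a9 passed the filter only through the MI mice and so had to be higher there. Lcn2, an iron-chelating protein of neutrophil granules that other cells also make, was at 1.83, 1.76 and 2.22 CPM in sham and 100.3, 21.6, 64.8 and 28.2 CPM after MI, highest in A105. Trem1, a receptor that amplifies neutrophil signalling, had no count in sham and 3.59, 2.49, 3.3 and 8.59 CPM after MI, at least 37.8-fold higher against a floor of 3 counts per library. The granule genes of immature neutrophils stayed near 0: Elane had no count in any library, Camp at most 3 and Mpo at most 7, and Ly6g, the usual surface marker, had 1 to 8 counts in the MI mice.

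Markers of recruited monocytes and macrophages were also mostly higher, 8 of the 10 that passed the filter in sham alone being called higher (median 2.48). The other 4 passed only through the MI mice. Fn1, Thbs1, Vcan and Spp1 of this list are also counted in the list of matricellular proteins below, so that the lists overlap. Chil3, a chitinase-like protein of monocytes, had 1 count in sham against 5471 after MI, a ratio of 3733 (95% exact interval 669.8 to 147484). Spp1, osteopontin, was at 0.341, 0.33 and 0.516 CPM in sham and 98.7, 266, 115.6 and 531 CPM after MI, with A129 highest by far. Gpnmb, a glycoprotein of lipid-loaded macrophages, split the MI mice, at 0.894, 0.844 and 1.11 CPM in sham and 4.25, 28.6, 4.15 and 33.2 CPM after MI. A127 and A129 were far above A105 and A128, and the same mice were the higher ones for Spp1. Ly6c2, a surface marker of freshly arrived monocytes, was not called (log2 fold change 0.39 ± 0.26 (SE), adjusted p = 0.259). Gpnmb was no longer called without S1, S2 or S3 (adjusted p up to 0.039). Gpnmb without A127 (0.014) and A129 (0.0411) also missed the threshold, with the adjusted p in brackets. Spp1 (from 9.30 to 8.65 without A129) depended on single mice for the size of the log2 fold change.

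Macrophage genes of wider use were higher in part. Of the pan-macrophage markers 8 of 12 were called higher (median 1.00), among them Lyz2, lysozyme, at 132, 119.9 and 139 CPM in sham and 213, 367, 276 and 433 CPM after MI, and Fcgr1, a high-affinity antibody receptor (log2 fold change 2.69 ± 0.35 (SE), adjusted p = 0.000716). Csf1r, the receptor on which macrophage survival depends, was at 49.5, 50.8 and 49.6 CPM in sham and 54.7, 67.9, 49.5 and 79.4 CPM after MI and was not called (adjusted p = 0.103). Markers of resident cardiac macrophages were divided. Mrc1, the mannose receptor, was called higher (log2 fold change 0.92 ± 0.14 (SE), adjusted p = 0.000939), whereas the scavenger receptor Cd163 gave -0.62 ± 0.15 log2 units and Timd4, a receptor for dying cells that marks long-lived resident macrophages, gave -0.70 ± 0.29 log2 units (adjusted p = 0.011 and 0.0832). In all, 3 of 11 resident markers were called higher and none lower (median 0.12). Of lysosomal and phagocytic genes 15 of 27 were called higher (median 0.81), with Lgals3, the galectin of phagocytes, at 2.13, 1.95 and 1.79 CPM in sham and 30.8, 53, 23.8 and 86.6 CPM after MI. Of the 4 most abundant members of that list, Ctsb, the protease cathepsin B, was called higher (log2 fold change 0.74 ± 0.15 (SE), adjusted p = 0.00469), and Psap, Ctsd and Lamp1 were not called (-0.07 ± 0.098 log2 units, 0.08 ± 0.098 log2 units and 0.03 ± 0.091 log2 units). The count of pan-macrophage markers called higher, 8 with all mice, was 4 without S1 and 3 without S2 or S3. The count of resident macrophage markers called higher, 3 with all mice, was 1 without S1 or S2. The count of lysosomal and phagocytic genes called higher, 15 with all mice, was 8 without S1 or S3 and 7 without S2. Cd163 without A105 (0.00618) passed the threshold, with the adjusted p in brackets. Lyz2 and Ctsb were no longer called without S1, S2 or S3 (adjusted p up to 0.029, Ctsb without S3). Ctsb also missed the threshold without A127 (adjusted p = 0.0134).

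Lymphocyte transcripts stayed scarce. The T and NK cell list summed to 2.18 to 3.92 CPM in sham and 1.47 to 3.63 CPM after MI, and neither of its 2 tested members was called. Ighm, the immunoglobulin heavy chain of naive B cells, was at 7.97, 7.53 and 7.46 CPM in sham and 4.04, 4.13, 3.07 and 3.14 CPM after MI and fell (log2 fold change -1.09 ± 0.15 (SE), adjusted p = 0.000726), while the other 3 tested of 9 B cell markers were not called. Their estimates reached 0.84, and the median of the B cell list was -0.33, turning to 0.23 without S1. Of 5 dendritic cell markers tested 1 was called higher, Itgax, an integrin that macrophages share (log2 fold change 2.73 ± 0.50 (SE), adjusted p = 0.00319), and none of 5 mast cell markers was called. Of 9 listed dendritic cell markers 5 passed the filter, 4 of them, Itgax included, only through the MI mice. The 1 marker that passed in sham was not called (-0.08 log2 units). The count of dendritic cell markers called higher, 1 with all mice, was 0 without S1, S2 or S3. Itgax was no longer called without S1, S2 or S3 (adjusted p up to 0.0167).

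Many chemokine genes rose. Of 39 listed ligands 27 passed the filter, 9 of them only through the MI mice. Of the other 18 ligands 10 were called higher and none lower, with a median of 1.36. The neutrophil attractants are neighbours in the genome. Cxcl5, encoded on chromosome 5 (90759360 to 90761624) beside Cxcl3 and Cxcl2, was at 0.128, 0.0734 and 0.119 CPM in sham and 18.6, 13.5, 45.5 and 19.5 CPM after MI, with A128 highest. Cxcl3 had no count in sham and 12.3, 2.88, 6.34 and 6.62 CPM after MI, at least 59.1-fold higher, and Cxcl2 was at 0.0852, 0 and 0.119 CPM in sham and 9.12, 2.98, 4.22 and 4.26 CPM after MI. A105 was highest for both. Ccl2, the main monocyte attractant, was at 0.894, 0.734 and 0.635 CPM in sham and 27.8, 19.7, 31.9 and 27.2 CPM after MI (log2 fold change 5.14 ± 0.22 (SE), adjusted p = 1.07e-05), a rise of similar size in all 4 mice. Ccl6 and Ccl9, chemokines made by macrophages, rose by 2.94 ± 0.33 log2 units and 2.67 ± 0.27 log2 units. At the other end, Cxcl12, the homeostatic chemokine that retains stem cells in bone marrow, was at 203, 201 and 211 CPM in sham and 191, 213, 201 and 198 CPM after MI and differed little (log2 fold change -0.03 ± 0.082 (SE), adjusted p = 0.787), and the interferon-induced Cxcl9 gave -0.92 ± 0.28 log2 units (adjusted p = 0.0253). With library size alone as the scaling the value of Cxcl12 turned to 0.18. Cxcl2 (from 6.18 to 5.57 without S2 and 6.85 without S3) depended on single mice for the size of the log2 fold change. Few sham counts of Cxcl2 remain without S3, so that this fitted value also depends on the prior count.

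Of 24 interleukins and inflammatory growth factors tested 12 passed the filter only through the MI mice, 11 of them being called higher. Of the other 12 genes 3 were called higher and 1 lower (median -0.21). Il6, encoded on chromosome 5 (30013114 to 30019981), was at 0, 0 and 0.0397 CPM in sham and 1.9, 1.9, 7.19 and 3.17 CPM after MI. Sham held a single count of it, so that the ratio of counts was 277 (95% exact interval 49.4 to 10969), and A128 was the highest MI mouse. Il1b, the interleukin released by inflammasome activation, was at 0.213, 0.0367 and 0.198 CPM in sham and 5.4, 3.77, 7.32 and 9.02 CPM after MI (log2 fold change 5.41 ± 0.49 (SE), adjusted p = 0.000132). Il1b passed the filter only through the MI mice and so had to be higher there. Il1r2, the decoy receptor that binds it without signalling, rose from 3 counts over the sham mice, a ratio of 263 (95% exact interval 89.8 to 1277). Hbegf, a growth factor of the epidermal growth factor family, was at 16.3, 19.3 and 19.6 CPM in sham and 105.3, 37.2, 39.3 and 55.5 CPM after MI, again highest in A105. Kitl, stem cell factor, was the member called lower (log2 fold change -0.43 ± 0.086 (SE), adjusted p = 0.00388), and Csf1, the macrophage growth factor, was not called (-0.24 ± 0.10 log2 units, adjusted p = 0.0789). Il15, which sustains NK cells, was at 40, 39.7 and 38.9 CPM in sham and 18.7, 21.2, 43.3 and 17.6 CPM after MI: A105, A127 and A129 were below every sham mouse and A128 above, and it was called only without A128 (adjusted p = 0.000171). The count of interleukins and growth factors of inflammation called lower, 1 with all mice, was 0 without S1, S2 or S3 or with library size alone and 2 without A128. Hbegf and Kitl were no longer called without S1, S2 or S3 (adjusted p up to 0.0346, Hbegf without S1). Hbegf also missed the threshold without A129 (adjusted p = 0.0366).

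Genes by which leukocytes stick to vessel walls rose as well, 10 of 16 being called higher and 1 lower. Selp and Sele encode the P- and E-selectins on which leukocytes roll. Selp was at 0.256, 0.441 and 0.119 CPM in sham and 8.58, 6.81, 16.2 and 11.2 CPM after MI (log2 fold change 5.26 ± 0.45 (SE), adjusted p = 0.000136), and Sele rose 6.56-fold. Selp passed the filter only through the MI mice and so had to be higher there. Jam2, an endothelial junction molecule, was the member called lower (log2 fold change -0.67 ± 0.11 (SE), adjusted p = 0.00139). Of the complement list 11 of 20 were called higher (median 0.74). Itgam, the integrin that serves as complement receptor 3 on neutrophils and monocytes, was at 3.02, 2.2 and 2.46 CPM in sham and 23.6, 20.4, 20.3 and 43.3 CPM after MI, highest in A129, while C3 itself was at 173, 145 and 163 CPM in sham and 188, 319, 286 and 191 CPM after MI (adjusted p = 0.0318). Of 17 listed leukocyte adhesion genes 16 passed the filter, 2 of them only through the MI mice, and 8 of the other 14 were called higher and 1 lower (median 0.86). The count of leukocyte adhesion genes called lower, 1 with all mice, was 0 without S2. All 20 listed complement genes passed the filter, 2 of them only through the MI mice, and 9 of the other 18 were called higher and 0 lower (median 0.66). The count of complement genes called higher, 11 with all mice, was 6 without S1 or S3 and 5 without S2. Jam2 was no longer called without S2 (adjusted p = 0.0102).

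Interferon and antigen presentation genes had shares of calls near those of all genes tested, 12.9% higher and 9.6% lower. Of 26 interferon response genes 2 were called higher and 3 lower, with a median of -0.08 that turned to 0.11 with library size alone, to 0.06 without S1 and to 0.05 without A128. Among the 25 that passed the filter in sham, 1 was called higher and 3 lower (median -0.12). Oas3, an antiviral sensor of double-stranded RNA, was called higher (log2 fold change 2.51 ± 0.47 (SE), adjusted p = 0.00315) and Rsad2, the antiviral viperin, lower (log2 fold change -1.25 ± 0.17 (SE), adjusted p = 0.00075). The MHC class II list had a median of -0.13, 0.09 with library size alone and 0.06 without A128, and its only called member was Ctss, a lysosomal protease of macrophages (log2 fold change 2.21 ± 0.39 (SE), adjusted p = 0.00265). Over the 8 members that passed the filter in sham the median was -0.44. Cd74, the invariant chain of MHC class II, was at 103, 104 and 78.3 CPM in sham and 55.7, 63.8, 16.4 and 55.5 CPM after MI, with A128 far below the other mice. H2-Aa, an MHC class II chain, was at 43.6, 43.1 and 29 CPM in sham and 20.2, 23.8, 6.83 and 23.7 CPM after MI, again lowest in A128. Without A128 the adjusted p of Cd74 went from 0.0651 to 0.00227 and that of H2-Aa from 0.0444 to 0.00552, both lower after MI. The count of interferon response genes called higher, 2 with all mice, was 0 without S1 or S3, 1 without S2 and 4 without A128, and the count called lower, 3 with all mice, was 1 without S1 or S2. The count of MHC class II genes called higher, 1 with all mice, was 0 without S1, S2 or S3, and the count called lower, 0 with all mice, was 3 without A128. Oas3 and Ctss were no longer called without S1, S2 or S3 (adjusted p up to 0.0179, Oas3 without S3).

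**Figure D3:**
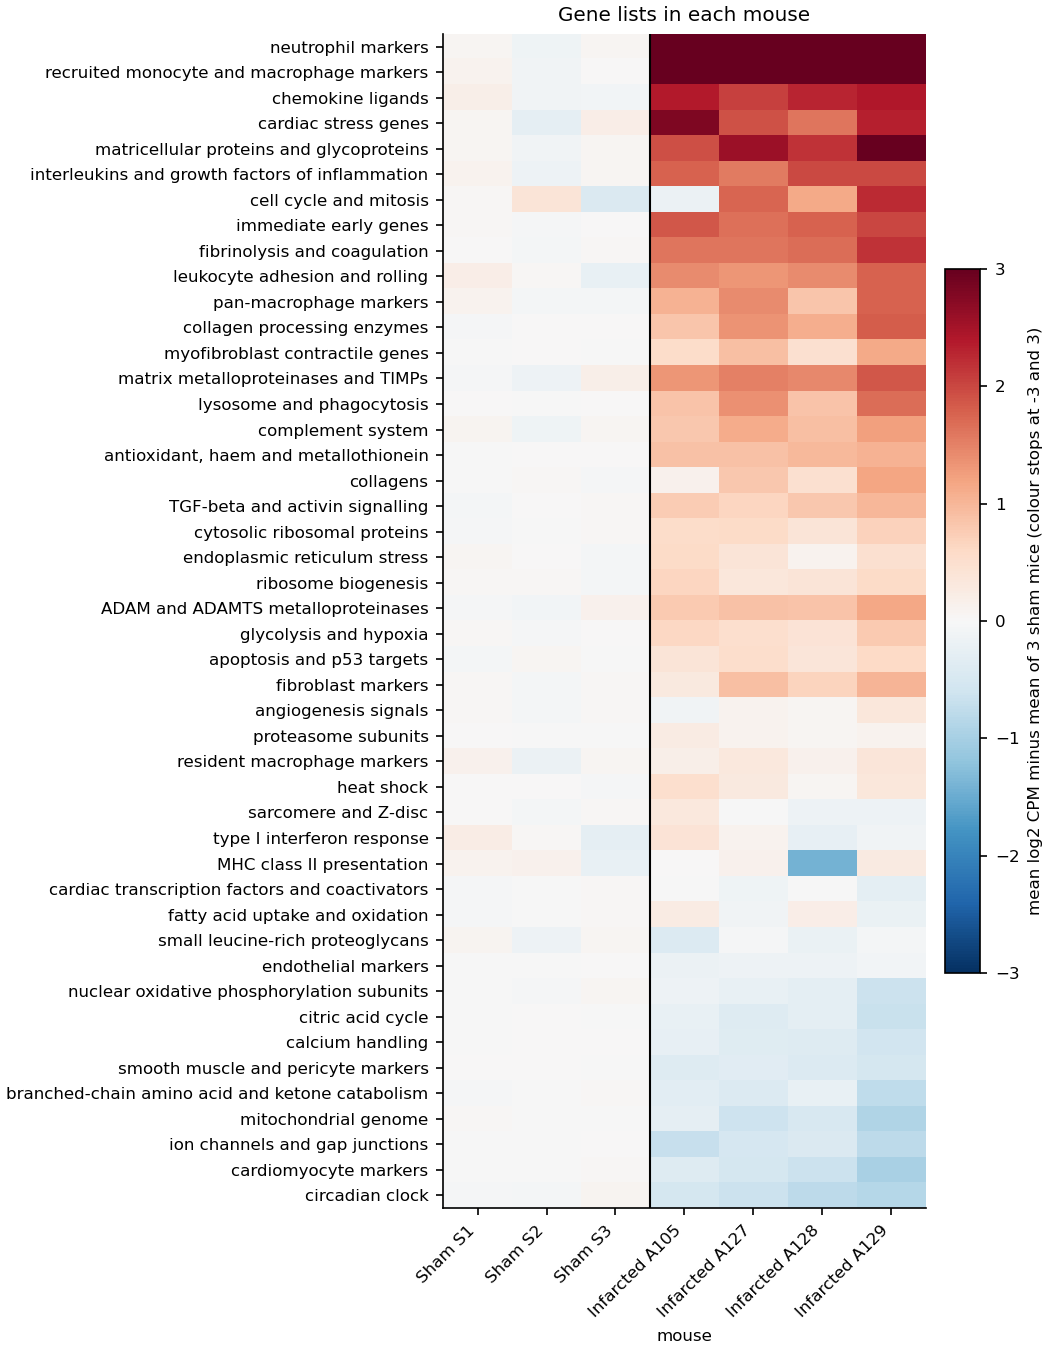
Mean log2 CPM of each gene list in each of the 7 mice minus the mean of the 3 sham mice (colour scale, log2 units), with lists as rows and mice as columns. Neutrophil, recruited macrophage and chemokine lists are raised in every MI mouse. Of their tested members 8 of 11, 4 of 14 and 9 of 27 passed the filter only through the MI mice, which favours a rise. The cell cycle list is raised in A127, A128 and A129 and not in A105, and the MHC class II list is lowest in A128.

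Immediate early genes, which encode transcription factors switched on within minutes of a stimulus, were mostly called higher on day 3. Of 26 tested 22 were called higher and none lower (median 1.64). Fos, a subunit of the AP-1 factor, was at 1.19, 0.844 and 1.19 CPM in sham and 11, 11.1, 18.2 and 17.5 CPM after MI (log2 fold change 3.75 ± 0.27 (SE), adjusted p = 4.17e-05), and Junb, its partner, at 9.71, 10.7 and 11.4 CPM in sham and 54, 46.9, 62.5 and 62.1 CPM after MI (log2 fold change 2.41 ± 0.12 (SE), adjusted p = 1.07e-05). All MI mice lay well above all sham mice for both. Atf3, a stress-induced factor of the same class, was at 4.26, 3.01 and 3.33 CPM in sham and 80, 36.4, 40.8 and 42.3 CPM after MI, with A105 highest. Fosl1 rose the most in this list (5.37 ± 0.63 log2 units), and Jun itself, at 59.2, 52.5 and 60.8 CPM in sham and 70.3, 90, 65.8 and 109 CPM after MI, was not called (adjusted p = 0.029, 0.00932 without A128). All 26 listed immediate early genes passed the filter, 3 of them only through the MI mice, and 19 of the other 23 were called higher and 0 lower (median 1.55).

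AP-1 recognises the letters TGANTCA, and the inflammatory factor NF-kappa-B the kappa-B letters GGG and TTTCC parted by 2 bases of any kind. Both strands of RefSeq promoters (GRCm38.p6, 250 bases before to 50 after each start) were searched for them. Of all 32851 promoters, 7.81% held the AP-1 letters and 1.63% the kappa-B letters. Among promoters of tested genes the shares were 5.46% and 1.68%, among those of genes called higher 8.51% and 2.98%, among those higher by more than 4-fold 17.4% and 5.39%, and among those called lower 5.35% and 1.24%. The shares are descriptions, no test was made of them, and a match is not evidence of binding. The 4 promoters printed here belong to raised genes of the coagulation, cytokine and chemokine lists and show where such letters lie. Serpinb2, at chr1:107511173-107511472 on the plus strand, has AP-1 letters 94 bases before its start. Il6, at chr5:30012864-30013163 on the plus strand, has AP-1 letters 249 bases and kappa-B letters 44 bases before the start. Cxcl3, at chr5:90785851-90786150 on the plus strand, has kappa-B letters at 73 bases before the start, and Cxcl2, at chr5:90903649-90903948 on the plus strand, has them at 97 and at 78 bases. Capitals mark the AP-1 and kappa-B letters, read 5′ to 3′.
Serpinb2: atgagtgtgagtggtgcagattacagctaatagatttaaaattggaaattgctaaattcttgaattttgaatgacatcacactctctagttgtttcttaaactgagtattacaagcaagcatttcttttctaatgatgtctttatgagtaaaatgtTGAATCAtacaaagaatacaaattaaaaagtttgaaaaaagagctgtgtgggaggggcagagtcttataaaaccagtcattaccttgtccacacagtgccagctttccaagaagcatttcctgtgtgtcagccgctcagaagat
Il6: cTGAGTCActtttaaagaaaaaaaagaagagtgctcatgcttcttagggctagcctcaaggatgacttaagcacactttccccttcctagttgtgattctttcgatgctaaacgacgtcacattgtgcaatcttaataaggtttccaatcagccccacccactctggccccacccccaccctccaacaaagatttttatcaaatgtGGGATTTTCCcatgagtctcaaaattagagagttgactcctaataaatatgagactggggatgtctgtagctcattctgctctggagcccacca
Cxcl3: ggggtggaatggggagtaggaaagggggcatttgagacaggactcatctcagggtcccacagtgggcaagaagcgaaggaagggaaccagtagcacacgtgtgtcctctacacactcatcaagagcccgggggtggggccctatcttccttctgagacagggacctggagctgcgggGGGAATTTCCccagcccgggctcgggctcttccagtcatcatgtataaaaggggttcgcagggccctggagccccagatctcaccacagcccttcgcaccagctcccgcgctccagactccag
Cxcl2: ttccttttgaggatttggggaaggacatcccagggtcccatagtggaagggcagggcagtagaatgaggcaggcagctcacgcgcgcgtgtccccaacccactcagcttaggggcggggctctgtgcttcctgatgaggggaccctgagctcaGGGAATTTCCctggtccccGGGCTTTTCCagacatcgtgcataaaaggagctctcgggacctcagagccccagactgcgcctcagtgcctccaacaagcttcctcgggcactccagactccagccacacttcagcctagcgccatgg

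Collagen genes rose in part, with the fibrillar chains of scar tissue among them. Of 36 collagen genes tested 13 were called higher and 4 lower (median 0.56). Col1a1, the main collagen of scars, lies on chromosome 11 (94936224 to 94953042) and was at 123, 111 and 113 CPM in sham and 273, 1062, 500.02 and 1500.2 CPM after MI. All MI mice were above sham, with A129 highest and A105 lowest. Its rise passed the test (log2 fold change 2.85 ± 0.53 (SE), adjusted p = 0.00346). Col3a1 was at 298, 261 and 238 CPM in sham and 621, 1569, 1091 and 2387 CPM after MI and had the same order of mice. Col12a1, a collagen that links fibrils, rose by 3.32 ± 0.60 log2 units. Basement membrane chains differed: Col4a1 rose by 0.66 ± 0.14 log2 units, Col4a2 gave 0.55 ± 0.14 log2 units and was not called (adjusted p = 0.0126), while Col4a3, of the kidney-type network, fell by 1.76 ± 0.19 (SE) on the log2 scale. Of 44 listed collagens 36 passed the filter, 4 of them only through the MI mice, and 13 of the other 32 were called higher and 4 lower (median 0.51). The count of collagens called higher, 13 with all mice, was 2 without S1, S2 or S3, and the count called lower, 4 with all mice, was 2 without S1, S3, A127 or A129 or with library size alone. Col4a2 without A128 (0.00952) and A129 (0.00779) passed the threshold, with the adjusted p in brackets. Col1a1, Col3a1, Col12a1 and Col4a1 were no longer called without S1, S2 or S3 (adjusted p up to 0.0362, Col4a1 without S3). Col1a1 also missed the threshold without A129 (adjusted p = 0.0168). Col12a1 (from 3.32 to 2.71 without A129) depended on single mice for the size of the log2 fold change.

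Enzymes and chaperones that fold and cross-link collagen were mostly higher. Of these 13 of 20 were called higher and none lower (median 0.93). Lox, lysyl oxidase, which makes the cross-links, was at 2.39, 2.79 and 4.09 CPM in sham and 46.6, 124, 97.6 and 260.1 CPM after MI. Its levels in MI ran from 46.6 CPM in A105 to 260.1 CPM in A129, all far above sham (log2 fold change 5.41 ± 0.65 (SE), adjusted p = 0.000647). Loxl1, a related oxidase, was at 31.4, 29.7 and 33.3 CPM in sham and 86.9, 110.3, 113 and 161 CPM after MI (log2 fold change 1.90 ± 0.19 (SE), adjusted p = 0.000227), and Serpinh1, the collagen chaperone HSP47, was at 234, 234 and 209.9 CPM in sham and 334, 451, 306 and 537 CPM after MI. Plod1, a lysyl hydroxylase, had an estimate in the other direction that was not called (log2 fold change -0.23 ± 0.11 (SE), adjusted p = 0.103). The count of collagen processing enzymes called higher, 13 with all mice, was 5 without S1, S2 or S3. Serpinh1 was no longer called without S1, S2 or S3 (adjusted p up to 0.0352). Serpinh1 also missed the threshold without A127 (adjusted p = 0.0179).

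Matricellular proteins, which sit in the matrix and signal to cells, were mostly called higher. Of 22 tested 19 were called higher and 1 lower (median 2.01). Tnc, tenascin-C, a marker of wound edges, was at 1.87, 1.1 and 1.03 CPM in sham and 74.8, 168, 124 and 240.2 CPM after MI (log2 fold change 6.84 ± 0.50 (SE), adjusted p = 7.18e-05). Thbs1, thrombospondin-1, an activator of TGF-beta, was at 6.94, 5.43 and 6.43 CPM in sham and 162, 104, 133 and 269.7 CPM after MI, and Fn1, fibronectin, at 88.3, 76.8 and 81 CPM in sham and 273, 480.2, 246 and 981 CPM after MI. Postn, the myofibroblast protein periostin, was at 51.2, 39.1 and 45.2 CPM in sham and 104, 367, 139 and 525 CPM after MI: A127 and A129 were above 360 CPM, and A105 and A128 below 140 CPM. Cthrc1, made by collagen-producing fibroblasts of the scar, varied still more, at 0.128, 0.184 and 0.238 CPM in sham and 1.61, 21.1, 4.74 and 28.6 CPM after MI. Tnxb, tenascin-X of resting connective tissue, was the member called lower (log2 fold change -0.55 ± 0.12 (SE), adjusted p = 0.0063). All 22 listed matricellular genes passed the filter, 2 of them only through the MI mice, and 17 of the other 20 were called higher and 1 lower (median 1.98). The count of matricellular genes called higher, 19 with all mice, was 10 without S1 or S2 and 11 without S3, and the count called lower, 1 with all mice, was 0 without S1, S2, S3, A105 or A127 or with library size alone and 2 without A129. Fn1, Postn, Cthrc1 and Tnxb were no longer called without S1, S2 or S3 (adjusted p up to 0.0341, Tnxb without S3). Postn without A127 (0.0123) and A129 (0.0252), Cthrc1 without A129 (0.0264) and Tnxb without A105 (0.0106) and A127 (0.0153) also missed the threshold, with the adjusted p in brackets. Cthrc1 (from 6.21 to 5.61 without A129) depended on single mice for the size of the log2 fold change.

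Small leucine-rich proteoglycans, which coat collagen fibrils, had 1 of 9 called higher and 2 lower (median -0.22), beside 12.9% and 9.6% of all genes tested. Bgn, biglycan, rose (log2 fold change 1.28 ± 0.25 (SE), adjusted p = 0.00446), Ogn, osteoglycin, fell (log2 fold change -0.61 ± 0.099 (SE), adjusted p = 0.00144) and Dcn, decorin, the most abundant, was at 428, 417 and 459.5 CPM in sham and 427, 542, 591 and 459.9 CPM after MI and was not called. Of the fibroblast markers 4 of 12 were called higher, beside 12.9% of all genes tested (median 0.27), and Gsn, gelsolin, at 1303, 1268 and 1369 CPM in sham and 922, 759, 1031 and 523 CPM after MI, had an estimate of -0.70 ± 0.20 log2 units (adjusted p = 0.0208). The fibroblast list includes Col1a1, Col1a2 and Col3a1, which are also counted in the collagen list. Myofibroblast contractile genes had 13 of 23 called higher and none lower (median 0.92). Actn1, the nonmuscle alpha-actinin, was at 42.7, 40.5 and 39.3 CPM in sham and 144, 126, 113 and 209 CPM after MI (log2 fold change 1.86 ± 0.20 (SE), adjusted p = 0.000306). Acta2, the smooth muscle actin by which myofibroblasts are usually identified, was at 121, 127.3 and 86.2 CPM in sham and 139.6, 152, 118 and 159.5 CPM after MI, with overlapping groups and no call (log2 fold change 0.35 ± 0.15 (SE), adjusted p = 0.0912). The count of small leucine-rich proteoglycans called higher, 1 with all mice, was 0 without S1, S2, S3 or A127, and the count called lower, 2 with all mice, was 0 without S1 and 1 without S3 or with library size alone. The count of fibroblast markers called higher, 4 with all mice, was 0 without S1, S2 or S3 and 2 without A129. The count of myofibroblast contractile genes called higher, 13 with all mice, was 8 without S1 or S2 and 7 without S3. Gsn without A128 (0.00859) and A129 (0.00499) passed the threshold, with the adjusted p in brackets. Bgn was no longer called without S1, S2 or S3, and Ogn without S1 (adjusted p up to 0.0243, Bgn without S2). Bgn also missed the threshold without A127 (adjusted p = 0.0114).

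Proteases and their inhibitors moved in both directions. Of 22 matrix metalloproteinases and TIMP inhibitors tested 9 were called higher and 3 lower (median 0.86). Timp1, an inducible inhibitor of these proteases, was at 1.11, 0.808 and 1.47 CPM in sham and 59.1, 103, 96.7 and 188 CPM after MI (log2 fold change 6.63 ± 0.49 (SE), adjusted p = 7.78e-05). Timp4, the inhibitor typical of heart muscle, was at 72.2, 78.7 and 75.2 CPM in sham and 56.5, 38.5, 35.9 and 29.7 CPM after MI (log2 fold change -0.91 ± 0.18 (SE), adjusted p = 0.00486). Mmp3, stromelysin, was at 1.02, 0.33 and 1.75 CPM in sham and 22, 14.7, 35.9 and 23.9 CPM after MI. Mmp8 and Mmp9 encode the collagenase and gelatinase of neutrophil granules, and Mmp9 is also on the neutrophil marker list. Mmp9 was at 0.894, 0.624 and 1.03 CPM in sham and 14.2, 12.2, 14.1 and 23.6 CPM after MI (log2 fold change 4.23 ± 0.30 (SE), adjusted p = 5.15e-05), and Mmp8 rose from 3 counts over the sham mice, a ratio of 200.4 (95% exact interval 68.3 to 974). Mmp2, the constitutive gelatinase of fibroblasts, was not called (-0.12 ± 0.098 log2 units, turning to 0.09 with library size alone). Of 27 listed matrix metalloproteinases and TIMPs 22 passed the filter, 6 of them only through the MI mice, and 5 of the other 16 were called higher and 3 lower (median -0.15). The count of matrix metalloproteinases and TIMPs called lower, 3 with all mice, was 1 without S3. Timp4 was no longer called without S1, S2 or S3 (adjusted p up to 0.0226). Timp4 without A127 (0.0138) and A128 (0.0132) also missed the threshold, with the adjusted p in brackets. Mmp3 (from 4.56 to 5.18 without S3) depended on single mice for the size of the log2 fold change.

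Members of the ADAM and ADAMTS family, to which the study's drug target belongs, had 13 of 28 called higher and 3 lower (median 0.42). Among the 27 that passed the filter in sham, 12 were called higher and 3 lower (median 0.30). Adam8, a protease of leukocytes, was at 0.639, 0.771 and 0.992 CPM in sham and 28.1, 36, 26.5 and 68.8 CPM after MI (log2 fold change 5.62 ± 0.46 (SE), adjusted p = 0.000111), and Adam12, of growing mesenchyme, at 0.809, 0.587 and 1.15 CPM in sham and 15.3, 17.1, 20 and 42.4 CPM after MI (log2 fold change 4.80 ± 0.47 (SE), adjusted p = 0.000233). Adam17, the shedding enzyme of tumour necrosis factor, was at 48.1, 47.4 and 46.4 CPM in sham and 42.7, 47.9, 41.2 and 53 CPM after MI and was not called (log2 fold change -0.04 ± 0.095 (SE), adjusted p = 0.789). Its value was 0.18 with library size alone and 0.02 without A128. Adamts4, an aggrecanase, was at 0.256, 0.11 and 0.318 CPM in sham and 21, 12.7, 28.1 and 44 CPM after MI. Adamts1, which cleaves versican, was at 41, 46.6 and 48.1 CPM in sham and 378, 115, 142 and 212 CPM after MI, with A105 highest, whereas Adamts7 fell (log2 fold change -1.54 ± 0.12 (SE), adjusted p = 5.6e-05). Adam10 was not among the called members. The count of ADAM and ADAMTS genes called higher, 13 with all mice, was 8 without S1 or S2, and the count called lower, 3 with all mice, was 1 without S1, S2 or S3 or with library size alone. Adamts1 was no longer called without S1, S2 or S3 (adjusted p up to 0.0183). Adamts1 also missed the threshold without A129 (adjusted p = 0.02).

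Signals that drive fibrosis were raised in part. Of 20 TGF-beta and activin genes 10 were called higher and 1 lower (median 0.55). Among the 19 that passed the filter in sham, 9 were called higher and 1 lower (median 0.48). Tgfb1 was at 24.1, 21.8 and 24.8 CPM in sham and 45.6, 47.2, 44.1 and 64.9 CPM after MI (log2 fold change 1.10 ± 0.14 (SE), adjusted p = 0.000473). Inhba and Inhbb, the subunits of activins A and B, rose by 3.10 ± 0.22 log2 units and 3.70 ± 0.41 log2 units. Tgfbr3, the co-receptor betaglycan, fell (log2 fold change -0.61 ± 0.13 (SE), adjusted p = 0.00493). Genes of coagulation and clot removal had 14 of 17 called higher and 2 lower (median 1.35). Plaur, the urokinase receptor, was at 1.36, 1.28 and 1.31 CPM in sham and 14.9, 14.6, 16.5 and 29 CPM after MI. Serpinb2, plasminogen activator inhibitor 2, whose promoter is printed above, had 1 count in sham, a ratio of 441 (95% exact interval 79 to 17465). F3, tissue factor, which starts coagulation, was called lower (log2 fold change -0.82 ± 0.14 (SE), adjusted p = 0.00152). AP-1 letters were present in 9 of 17 promoters of this list (52.9%), beside 5.46% of promoters of tested genes. These promoters belong to 8 of the 12 genes of the list that had one in the table, the falling F3 among them. The count of TGF-beta and activin genes called lower, 1 with all mice, was 0 without S1, S2, S3, A105 or A127 or with library size alone and 2 without A128. All 17 listed coagulation and clot removal genes passed the filter, 2 of them only through the MI mice, and 12 of the other 15 were called higher and 2 lower (median 1.09). The count of coagulation and clot removal genes called higher, 14 with all mice, was 8 without S2, and the count called lower, 2 with all mice, was 1 without S1 or S2 and 0 without S3. Tgfbr3 was no longer called without S1, S2 or S3, and F3 without S3 (adjusted p up to 0.0255, Tgfbr3 without S3). Tgfbr3 without A105 (0.0103) and A127 (0.0155) also missed the threshold, with the adjusted p in brackets.

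**Figure D4:**
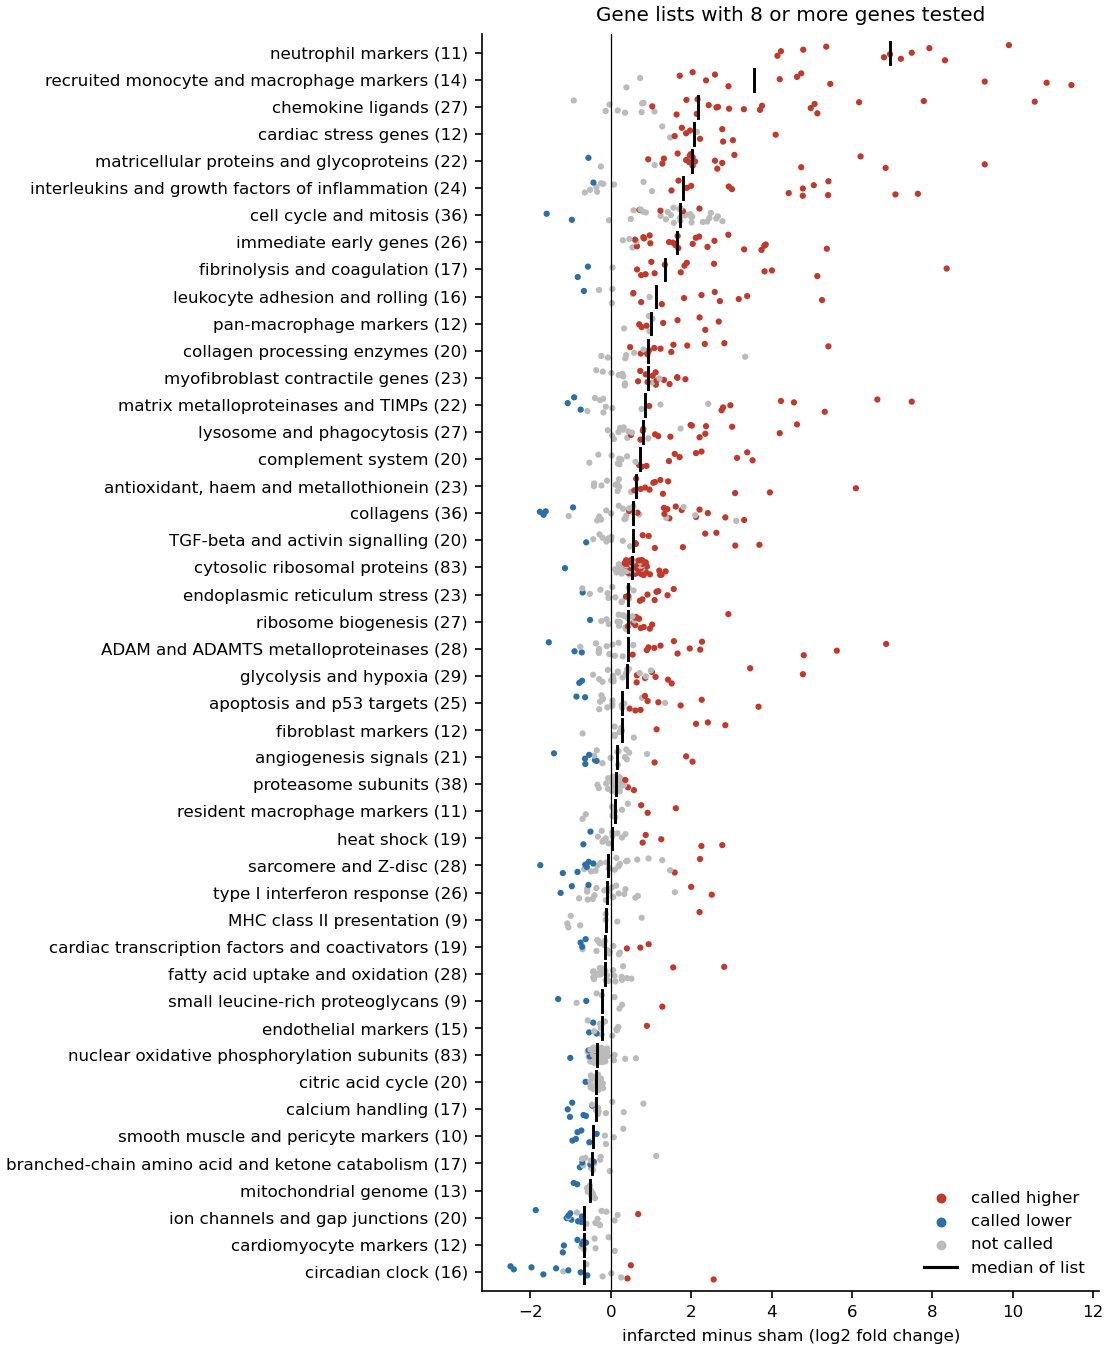
Log2 fold change of MI over sham for every tested member (points) of each list with at least 8 members tested, with the median as a line. Neutrophil markers, most of which passed the filter only through the MI mice, lie highest with a median of 6.95, and cardiomyocyte markers, ion channels and clock genes lie lowest with medians near -0.67.

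Cardiomyocyte transcripts were lower in part. Of 12 cardiomyocyte markers 6 were called lower and none higher (median -0.67), beside 9.6% called lower among all genes tested, while the wider sarcomere and Z-disc list had 2 of 28 called higher and 7 lower and a median of -0.08, which turned to 0.12 with library size alone. Myh6, the adult alpha-myosin heavy chain on chromosome 14 (54941921 to 54966927, minus strand), was at 36903, 38309 and 37577 CPM in sham and 19973, 17484, 14989 and 13390.1 CPM after MI. Every MI mouse was far below sham and A129 was lowest (log2 fold change -1.19 ± 0.16 (SE), adjusted p = 0.000637). Its neighbour Myh7, the fetal beta-myosin heavy chain (54970684 to 54994626), was at 644, 581 and 730.0 CPM in sham and 1964, 2026, 1834 and 2032 CPM after MI and rose to similar levels in all MI mice (log2 fold change 1.59 ± 0.12 (SE), adjusted p = 5.23e-05). Myl2, the ventricular regulatory light chain, was at 5689, 5326 and 5791 CPM in sham and 4052, 3731, 2400.2 and 2449 CPM after MI (log2 fold change -0.83 ± 0.20 (SE), adjusted p = 0.00917), and Tcap, the titin cap protein of the Z-disc, at 1799, 1753 and 1909 CPM in sham and 513, 599.7, 596 and 451 CPM after MI, the strongest fall of this list (log2 fold change -1.75 ± 0.13 (SE), adjusted p = 4.17e-05). Tnnt2, cardiac troponin T, was at 6548, 6743 and 7036 CPM in sham and 8314, 6978, 7634 and 6095 CPM after MI and Actc1, cardiac actin, at 8281, 8016 and 7877 CPM in sham and 7941, 5786, 5719 and 5349 CPM after MI, and neither was called (adjusted p = 0.597 and 0.0801). Tnni3, troponin I, was at 3362, 3351 and 3519 CPM in sham and 2613, 2544, 1884 and 1592 CPM after MI, with an adjusted p of 0.0152 that fell to 0.00758 without A105. The count of cardiomyocyte markers called lower, 6 with all mice, was 1 without S1, S2 or S3, 2 without A127 and 3 with library size alone. The count of sarcomere and Z-disc genes called higher, 2 with all mice, was 5 with library size alone, and the count called lower, 7 with all mice, was 2 without S1, S2 or S3, 4 without A127 and 3 with library size alone. Actc1 without A105 (0.00643) and Tnni3 without A129 (0.00759) passed the threshold, with the adjusted p in brackets. Myl2 was no longer called without S1, S2 or S3 (adjusted p up to 0.0399). Myl2 without A127 (0.0128) and A128 (0.0183) and A129 (0.0133) also missed the threshold, with the adjusted p in brackets.

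Cardiac stress genes, a list that includes Nppa and Nppb, had 9 of 12 called higher and none lower (median 2.06). For the 11 that passed the filter in sham, 9 were called higher (median 1.97). Ankrd1, a stretch-sensing repeat protein of the sarcomere, was at 667, 601 and 627 CPM in sham and 4469, 2288, 2690.2 and 2335 CPM after MI (log2 fold change 2.22 ± 0.24 (SE), adjusted p = 0.000277), and Xirp1, a repair protein of damaged intercalated discs, was at 279, 281 and 271 CPM in sham and 1148, 390.1, 562 and 594 CPM after MI and was not called (adjusted p = 0.0126). Gdf15, a stress cytokine, was at 0.937, 0.808 and 0.992 CPM in sham and 28.1, 8.48, 10.3 and 16.2 CPM after MI, again highest in A105. Nmrk2, a muscle kinase of the NAD salvage route, also varied, at 2.81, 2.13 and 2.34 CPM in sham and 322, 96.7, 57.5 and 149 CPM after MI. Acta1, skeletal actin, a member of the fetal programme, was at 157, 64 and 180.4 CPM in sham and 595, 364, 199.9 and 330.1 CPM after MI and was not called (adjusted p = 0.0222). A105 was the highest MI mouse for Nppb, Ankrd1, Xirp1, Gdf15, Nmrk2 and Acta1. In A129, the highest mouse for most raised genes, each lay between those of other MI mice. Xirp1 without A105 (0.0029) and A127 (0.00475) passed the threshold, with the adjusted p in brackets. Nmrk2 (from 6.01 to 5.37 without A105) depended on single mice for the size of the log2 fold change.

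Genes of calcium cycling and of the action potential were lower in part. Of 17 calcium-handling genes 6 were called lower and none higher (median -0.37). Atp2a2, the pump that returns calcium to the sarcoplasmic reticulum, was at 18376, 18734 and 18291 CPM in sham and 10374, 10543, 9221 and 6435 CPM after MI (log2 fold change -1.01 ± 0.18 (SE), adjusted p = 0.00212), and Pln, its inhibitor phospholamban, at 6653, 6420.2 and 6540.5 CPM in sham and 3692, 4619, 4821 and 3224 CPM after MI (log2 fold change -0.68 ± 0.16 (SE), adjusted p = 0.00796). Ryr2, the release channel, was at 2295, 2496 and 2667 CPM in sham and 1580.2, 1642, 1864 and 1406 CPM after MI. Hrc, a calcium-binding protein of the store, fell by 1.07 ± 0.19 (SE) on the log2 scale. Of 20 channel genes 8 were lower and 1 higher (median -0.66). Scn4b, a subunit of the sodium channel, was at 40.7, 40.3 and 37.2 CPM in sham and 9.24, 11.2, 12.1 and 10.6 CPM after MI, with 4 close values in MI (log2 fold change -1.87 ± 0.10 (SE), adjusted p = 1.15e-05). Kcnip2, which is needed for the transient outward current, was at 217, 217 and 213 CPM in sham and 68.7, 139, 151 and 56.7 CPM after MI: all MI mice were below sham, A105 and A129 the most, and it was not called (log2 fold change -1.05 ± 0.32 (SE), adjusted p = 0.0271). Gja5, connexin 40 of the conduction system and arteries, was called higher (log2 fold change 0.68 ± 0.16 (SE), adjusted p = 0.00926), whereas Gja1, connexin 43 of working muscle, was not called (0.17 ± 0.12 log2 units). The count of calcium-handling genes called lower, 6 with all mice, was 1 without S1, S2 or S3 and 3 without A127 or with library size alone. The count of channel genes called higher, 1 with all mice, was 0 without S1, S2, S3, A127, A128 or A129, and the count called lower, 8 with all mice, was 5 without S2. Atp2a2, Pln, Ryr2, Hrc and Gja5 were no longer called without S1, S2 or S3 (adjusted p up to 0.0452, Gja5 without S3). Pln without A105 (0.0143) and A127 (0.0125), Ryr2 without A127 (0.0132) and Gja5 without A127 (0.0241) and A128 (0.0191) and A129 (0.0149) also missed the threshold, with the adjusted p in brackets.

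Regulators of these genes had shares of calls close to those of all genes tested, 12.9% higher and 9.6% lower, with 3 of 19 cardiac transcription factors and coactivators called higher, 3 lower and a median of -0.14, which turned to 0.06 with library size alone. Ppargc1a, a coactivator of mitochondrial genes, was at 177, 177 and 169 CPM in sham and 282, 405, 297 and 358 CPM after MI and rose (log2 fold change 0.94 ± 0.13 (SE), adjusted p = 0.000752). Perm1, a muscle regulator of the same processes, fell (log2 fold change -0.62 ± 0.11 (SE), adjusted p = 0.00231), as did Ppara, the receptor that governs fatty acid oxidation (log2 fold change -0.75 ± 0.089 (SE), adjusted p = 0.000351). Mef2a and Mef2d were near their sham levels (-0.03 ± 0.10 log2 units and -0.09 ± 0.086 log2 units). The count of cardiac transcription factors and coactivators called lower, 3 with all mice, was 1 without S1, S2 or S3 and 5 without A105 or A128. Perm1 was no longer called without S1, S2 or S3 (adjusted p up to 0.0157).

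Lists of mitochondrial energy metabolism had medians below 0, and how many members passed the threshold changed when mice were left out. The median of the nuclear subunits of oxidative phosphorylation stayed at -0.35, -0.36 and -0.32 without S1, S2 and S3. Of 83 nuclear subunits of oxidative phosphorylation 4 were called lower and none higher (median -0.34), a smaller share than the 9.6% called lower among all genes tested. Cox7a1, the muscle form of a cytochrome oxidase subunit, was at 354, 377 and 388 CPM in sham and 234, 208, 187 and 115 CPM after MI (log2 fold change -1.01 ± 0.20 (SE), adjusted p = 0.0046), while Atp5b, of the ATP synthase, was at 5061, 5205 and 5057 CPM in sham and 4232, 3882, 4159 and 3022 CPM after MI (adjusted p = 0.0396). Of 13 protein-coding mitochondrial genes 2 were called lower (median -0.51), among them mt-Nd5, of complex I, at 30735, 30279.7 and 28950.4 CPM in sham and 20938, 14104, 17436 and 14822 CPM after MI. A129 was the lowest mouse for Cox7a1 and Atp5b, and it was also lowest for the share of counts in nuclear oxidative phosphorylation subunits, at 2.56% against 3.13% to 3.19% in the other MI mice and 3.35% to 3.44% in sham. Citric acid cycle genes had 1 of 20 called lower (median -0.36), Sucla2, a subunit of succinyl-CoA ligase (log2 fold change -0.63 ± 0.13 (SE), adjusted p = 0.0055). Genes of branched-chain amino acid and ketone use had 4 of 17 lower (median -0.48), with Mccc1, of leucine breakdown, at 149, 149 and 153 CPM in sham and 95.9, 102, 86.8 and 69.6 CPM after MI. The count of nuclear oxidative phosphorylation subunits called lower, 4 with all mice, was 0 without S1, S2, S3 or A128, 10 without A105 or A129, 2 without A127 and 1 with library size alone. The count of mitochondrial genome genes called lower, 2 with all mice, was 1 without S1, S2, S3 or A127, 9 without A105 and 7 without A129. The count of citric acid cycle genes called lower, 1 with all mice, was 0 without S1, S2, S3 or A127, 5 without A105 and 7 without A129. The count of branched-chain amino acid and ketone genes called lower, 4 with all mice, was 1 without S1 or S3, 2 without S2 or with library size alone, 7 without A105 and 10 without A129. Cox7a1, mt-Nd5 and Sucla2 were no longer called without S1, S2 or S3 (adjusted p up to 0.0275, Sucla2 without S1). Cox7a1 without A128 (0.0104), mt-Nd5 without A127 (0.0119) and Sucla2 without A127 (0.0156) also missed the threshold, with the adjusted p in brackets.

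Fatty acid genes had no member called lower. Their median was -0.15, and 0.04 with library size alone, and the 2 members of 28 called higher were Pdk4 and Ucp3. Pdk4, the kinase that shuts off pyruvate oxidation, was at 183, 224 and 152 CPM in sham and 1321, 1702, 1008 and 1253 CPM after MI, and rose 7.07-fold (log2 fold change 2.82 ± 0.21 (SE), adjusted p = 4.4e-05). Ucp3, an uncoupling protein of muscle mitochondria, was at 20.8, 18.4 and 17 CPM in sham and 60.4, 67.1, 40.6 and 51.6 CPM after MI (log2 fold change 1.55 ± 0.17 (SE), adjusted p = 0.000277). Cd36, the fatty acid transporter, was at 1625, 1615 and 1696 CPM in sham and 2210.4, 1282, 2291 and 1356 CPM after MI, with values on both sides of sham and an estimate of 0.12 ± 0.21 log2 units that turned to -0.02 without A105 or without A128.

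Genes of sugar metabolism included pairs of paralogs that moved in opposite directions. Slc2a4, the insulin-responsive glucose transporter GLUT4, was at 413, 416 and 417 CPM in sham and 238, 289, 255 and 183 CPM after MI and fell (log2 fold change -0.78 ± 0.14 (SE), adjusted p = 0.0024). Slc2a1, the basal transporter GLUT1, was at 18.4, 18.6 and 17.3 CPM in sham and 57.3, 38.1, 43.8 and 68 CPM after MI and rose (log2 fold change 1.52 ± 0.19 (SE), adjusted p = 0.00057). In the same way Pfkm, the muscle phosphofructokinase, was at 1176, 1188 and 1146 CPM in sham and 752, 787, 752 and 562 CPM after MI (log2 fold change -0.71 ± 0.13 (SE), adjusted p = 0.00251), and Pfkp, the platelet form, at 63.1, 59.7 and 65 CPM in sham and 221, 124, 139 and 189 CPM after MI (log2 fold change 1.42 ± 0.19 (SE), adjusted p = 0.000773). Slc16a3, the lactate exporter MCT4, was at 1.92, 0.661 and 1.15 CPM in sham and 28.3, 25.3, 21.8 and 59.6 CPM after MI, with A129 highest. Over the list 9 of 29 glycolysis and hypoxia genes were called higher and 2 lower (median 0.41). For the 28 that passed the filter in sham these counts were 8 and 2 (median 0.39). Aldoa and Pkm, the abundant glycolytic enzymes, were not called (-0.29 ± 0.12 log2 units and 0.05 ± 0.11 log2 units). The count of glycolysis and hypoxia genes called higher, 9 with all mice, was 5 without S1, S2 or S3, and the count called lower, 2 with all mice, was 0 without S1, S2 or S3. Slc2a4 and Pfkm were no longer called without S1, S2 or S3 (adjusted p up to 0.0161, Pfkm without S2).

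**Figure D5:**
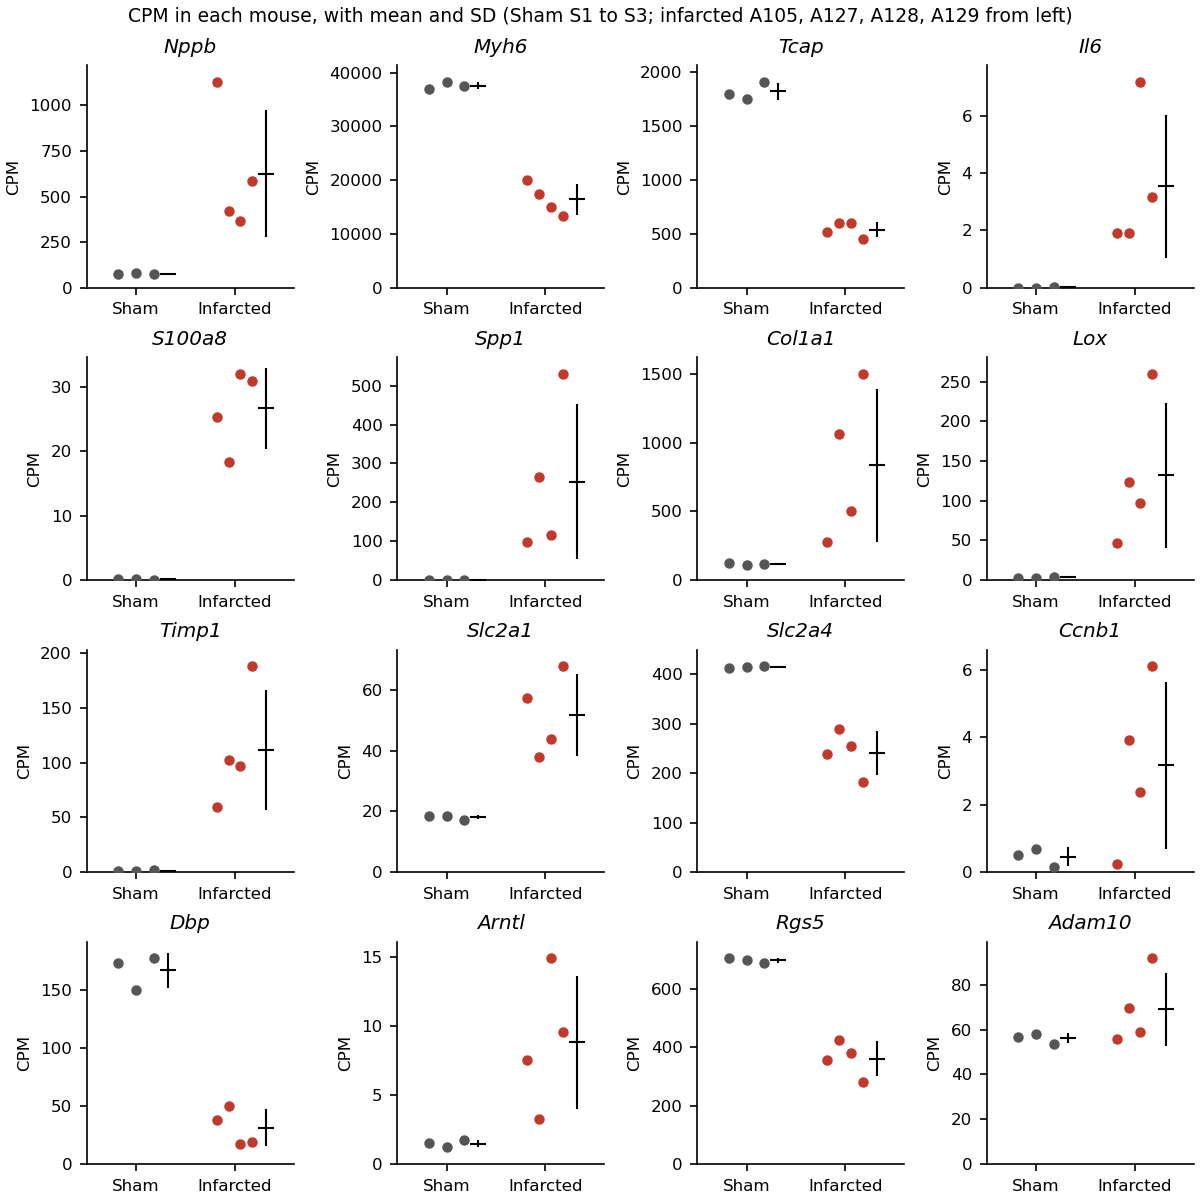
CPM of 16 named genes in each of the 7 mice, with sham and MI mice in separate colours and each gene's linear vertical axis starting at 0; black marks give the mean and SD of each group. Nppb, S100a8, Spp1, Lox, Timp1 and Slc2a1 are higher in every MI mouse than in every sham mouse, Myh6, Tcap, Slc2a4, Dbp and Rgs5 are lower in every MI mouse, and Adam10 and Ccnb1 overlap.

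Genes of protein synthesis were higher in part, by small amounts. Of 83 cytosolic ribosomal protein genes 53 were called higher and 1 lower, with a median of 0.52. Rpl8, for example, was at 269, 260.2 and 266 CPM in sham and 397, 361, 328 and 399 CPM after MI (log2 fold change 0.49 ± 0.10 (SE), adjusted p = 0.00461). The lower member was Rpl3l, a paralog restricted to muscle, at 201, 225 and 234 CPM in sham and 117.5, 116.4, 114 and 52.2 CPM after MI, with A129 far below the other MI mice. Many of these genes have near-identical pseudogene copies, and the authors counted uniquely aligned reads, so that the levels rest on the reads that set each copy apart and are uncertain. Of 27 ribosome biogenesis genes 11 were called higher and 1 lower (median 0.43). Npm1, nucleophosmin, was at 46.6, 48 and 48.1 CPM in sham and 77.9, 83.3, 77.4 and 97.6 CPM after MI (log2 fold change 0.82 ± 0.095 (SE), adjusted p = 0.000306), and Myc, the growth-promoting transcription factor, at 2.81, 2.79 and 1.87 CPM in sham and 21.3, 14.3, 14.5 and 25.7 CPM after MI (log2 fold change 2.93 ± 0.27 (SE), adjusted p = 0.000159). Proteasome subunits had few calls, 3 of 38 being called higher (median 0.12). The count of ribosomal protein genes called higher, 53 with all mice, was 14 without S1, 15 without S2 and 19 without S3, and the count called lower, 1 with all mice, was 0 without S1, S2, S3, A127 or A128. The count of ribosome biogenesis genes called higher, 11 with all mice, was 4 without S1 or S2, 5 without S3 and 19 with library size alone. The count of proteasome subunits called higher, 3 with all mice, was 0 without S1, S2 or S3, 1 without A105 and 20 with library size alone. Rpl8 and Rpl3l were no longer called without S1, S2 or S3 (adjusted p up to 0.0316, Rpl8 without S2). Rpl3l without A127 (0.0115) and A128 (0.014) also missed the threshold, with the adjusted p in brackets.

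Stress responses differed in kind. Antioxidant, haem and metallothionein genes had 13 of 23 called higher and none lower (median 0.63). For the 22 that passed the filter in sham, 12 were called higher and none lower (median 0.61). Hmox1, the haem oxygenase, was at 8.22, 10.7 and 8.34 CPM in sham and 53.9, 145, 157 and 209 CPM after MI, lowest in A105 (log2 fold change 3.96 ± 0.44 (SE), adjusted p = 0.000361), whereas the haemoglobin and other red cell transcripts were highest in A105, at 3623 CPM in sum against 228 to 936 CPM in the other MI mice and 581 to 1272 CPM in sham. Mt2, a metallothionein, was at 25.9, 23.9 and 32.1 CPM in sham and 281, 158, 242 and 251 CPM after MI (log2 fold change 3.09 ± 0.21 (SE), adjusted p = 4.4e-05). Sod2, the mitochondrial superoxide dismutase, and Cat, catalase, were not called (-0.41 ± 0.11 log2 units and 0.12 ± 0.15 log2 units). Of 23 endoplasmic reticulum stress genes 10 were called higher and 1 lower (median 0.44). Hspa5, the chaperone BiP, was at 644, 544 and 559.5 CPM in sham and 1018, 617, 485 and 694 CPM after MI, above every sham mouse only in A105 and A129, and was not called, and Ddit3, the death-promoting factor CHOP, was at 17.5, 15.7 and 20 CPM in sham and 14.9, 13.7, 11 and 10.1 CPM after MI (adjusted p = 0.02, lower in each MI mouse). Heat shock genes had 5 of 19 called higher and 2 lower, with a median of 0.04 that turned to -0.03 without S3, -0.02 without A105 and -0.07 without A127. The count of endoplasmic reticulum stress genes called higher, 10 with all mice, was 5 without S1, S2 or S3, and the count called lower, 1 with all mice, was 0 without S1, S2 or S3 or with library size alone and 2 without A105 or A127. The count of heat shock genes called higher, 5 with all mice, was 1 without S1, S2 or S3, and the count called lower, 2 with all mice, was 1 without S1 or S2 or with library size alone. Sod2 without A129 (0.00625) and Ddit3 without A105 (0.00847) passed the threshold, with the adjusted p in brackets.

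Cell division transcripts differed among the MI mice. The mean log2 CPM over the cell cycle and mitosis list was 1.51 to 2.32 in sham, 1.75 in A105, 3.67 in A127, 3.08 in A128 and 4.18 in A129. A105 thus stood within the sham range and the others above it. Mki67, the proliferation antigen, was at 13.7, 16.3 and 8.49 CPM in sham and 4.95, 48.3, 26.9 and 72.4 CPM after MI, and Ccnb1, the cyclin of mitotic entry, at 0.511, 0.698 and 0.159 CPM in sham and 0.248, 3.93, 2.39 and 6.12 CPM after MI. A105 was below the lowest sham mouse for Mki67 and between sham values for Ccnb1. With all mice 4 of 36 genes were called higher and 2 lower, and the adjusted p was 0.116 for Mki67 and 0.0337 for Ccnb1. Without A105, 29 were called higher and 2 lower, with adjusted p of 0.00385 and 0.00197. Ccnd2, a cyclin of early cell cycle, fell in every MI mouse, at 206, 208 and 184 CPM in sham and 102, 128.6, 81.9 and 96.1 CPM after MI (log2 fold change -0.97 ± 0.14 (SE), adjusted p = 0.000784). A105 was also the mouse with the highest stress genes and red cell transcripts and the lowest Col1a1, and the part of these differences in the cell cycle values was not tested. All 36 listed cell cycle genes passed the filter, 2 of them only through the MI mice, and 4 of the other 34 were called higher and 2 lower (median 1.71). The count of cell cycle genes called higher, 4 with all mice, was 0 without S1, S2 or S3, 29 without A105 and 2 without A127, and the count called lower, 2 with all mice, was 1 without S1, S2, S3, A128 or A129 or with library size alone.

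Of 25 apoptosis genes and p53 targets 9 were called higher and 2 lower (median 0.29). Among the 24 that passed the filter in sham, 8 were called higher and 2 lower (median 0.28). Cdkn1a, the cell cycle inhibitor p21, was at 18.4, 23.6 and 22.4 CPM in sham and 124, 63.3, 104 and 122 CPM after MI (log2 fold change 2.26 ± 0.23 (SE), adjusted p = 0.000271). Ccng1 and Sesn1, also targets of p53, went the other way: Ccng1 was at 1054, 990.3 and 1043 CPM in sham and 643, 661, 754 and 586 CPM after MI (log2 fold change -0.64 ± 0.11 (SE), adjusted p = 0.00216), and Sesn1 gave -0.85 ± 0.16 log2 units. The count of apoptosis genes and p53 targets called higher, 9 with all mice, was 3 without S1 or S3, 4 without S2 and 5 without A127, and the count called lower, 2 with all mice, was 0 without S1, S2 or S3. Ccng1 and Sesn1 were no longer called without S1, S2 or S3 (adjusted p up to 0.0179, Sesn1 without S2).

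Vessel genes moved in both directions. Of 21 angiogenesis signals 3 were called higher and 6 lower, with a median of 0.16 that was -0.11 without A129. Vegfa, the main angiogenic factor, was at 290.5, 275 and 344 CPM in sham and 412, 337, 288 and 338 CPM after MI and was not called (adjusted p = 0.313), while its receptors Kdr and Flt1 fell by 0.35 ± 0.08 and 0.39 ± 0.087 (SE) on the log2 scale. Pgf, placental growth factor, rose (log2 fold change 2.03 ± 0.31 (SE), adjusted p = 0.00136). Aplnr, the apelin receptor of sprouting vessels, was at 39.9, 36.9 and 35 CPM in sham and 5.82, 18.3, 11.8 and 20 CPM after MI, lowest in A105 (log2 fold change -1.41 ± 0.33 (SE), adjusted p = 0.00961). Endothelial markers had 1 of 15 called higher and 3 lower (median -0.23). The member called higher was Cldn5, a tight junction protein (log2 fold change 0.90 ± 0.18 (SE), adjusted p = 0.00392), and Pecam1, the pan-endothelial CD31, was at 200.3, 201 and 197 CPM in sham and 176, 193, 218 and 232 CPM after MI and was not called (0.04 ± 0.11 log2 units, turning to -0.02 without A129). The count of angiogenesis signals called higher, 3 with all mice, was 1 without S1 or S2, 0 without S3 and 6 with library size alone, and the count called lower, 6 with all mice, was 2 without S1, S2 or S3, 3 without A127 or A128 and 1 with library size alone. The count of endothelial markers called higher, 1 with all mice, was 0 without S1 or S2 and 2 with library size alone, and the count called lower, 3 with all mice, was 1 without S1, S2 or S3 and 0 with library size alone. Kdr, Flt1 and Aplnr were no longer called without S1, S2 or S3, Cldn5 without S1 or S2, and Pgf without S3 (adjusted p up to 0.0416, Aplnr without S1). Kdr without A128 (0.0128), Flt1 without A127 (0.0166) and A128 (0.0114) and Aplnr without A127 (0.0119) and A128 (0.0314) and A129 (0.0181) also missed the threshold, with the adjusted p in brackets.

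Mural cell markers were lower in part, 6 of 10 smooth muscle and pericyte markers being called lower and none higher (median -0.44). Rgs5, a regulator of G-protein signalling that marks pericytes, was at 706, 699 and 688 CPM in sham and 356, 425, 379 and 282 CPM after MI, with every MI mouse below 430 CPM and every sham mouse above 680 CPM (log2 fold change -0.95 ± 0.13 (SE), adjusted p = 0.000737). Kcnj8, the potassium channel of pericytes, was at 48, 48.1 and 42.1 CPM in sham and 28.8, 25, 25.4 and 21.9 CPM after MI (log2 fold change -0.87 ± 0.10 (SE), adjusted p = 0.000325). Its regulatory subunit Abcc9 fell too (log2 fold change -1.05 ± 0.16 (SE), adjusted p = 0.00109). Pdgfrb, the receptor through which vessels recruit pericytes, was at 96.1, 99.9 and 87.8 CPM in sham and 81, 81.6, 82.5 and 97 CPM after MI and was not called (-0.15 ± 0.09 log2 units). The count of smooth muscle and pericyte markers called lower, 6 with all mice, was 2 without S1 and 3 without S2 or S3 or with library size alone.

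Circadian clock genes made up another group with falling members. Of 16 tested 8 were called lower and 3 higher (median -0.67). Dbp, an output factor of the clock on chromosome 7 (45705088 to 45710203), was at 173, 149.5 and 177 CPM in sham and 38.3, 50.2, 17.3 and 19.3 CPM after MI, with A128 and A129 below A105 and A127 (log2 fold change -2.41 ± 0.34 (SE), adjusted p = 0.000969). Hlf and Tef, its relatives, fell by 1.97 ± 0.19 and 1.36 ± 0.16 (SE) on the log2 scale, and Ciart, a clock repressor, was at 17.1, 16.1 and 21.3 CPM in sham and 5.03, 2.65, 2.19 and 3.14 CPM after MI. Arntl, which encodes the activator BMAL1 whose transcript peaks opposite to Dbp, was at 1.53, 1.21 and 1.75 CPM in sham and 7.55, 3.27, 14.9 and 9.56 CPM after MI and rose (log2 fold change 2.56 ± 0.48 (SE), adjusted p = 0.00351). Per1, a repressor of the clock that also responds to stress, was not called (-0.20 ± 0.15 log2 units). Nr1d1, the repressor REV-ERB alpha, was at 82.2, 80 and 95.5 CPM in sham and 60.4, 44.7, 21.5 and 25 CPM after MI, with an adjusted p of 0.0168 that was 0.00219 without A105. The hour at which each heart was taken was not given, so that time of day and injury cannot be told apart. The count of clock genes called higher, 3 with all mice, was 0 without S1 or S2 and 1 without S3. Per1 without A105 (0.00989) passed the threshold, with the adjusted p in brackets. Arntl was no longer called without S1, S2 or S3 (adjusted p up to 0.0211). Arntl also missed the threshold without A129 (adjusted p = 0.0148).

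The clock activators bind the E-box letters CACGTG, and REV-ERB and ROR factors the letters TAGGTCA. On both strands of the RefSeq promoters (GRCm38.p6) the E-box letters were in 7.15% of all promoters, 9.5% of those of tested genes and 8.33% of those of genes called lower. They were in 6 of 19 promoters of the clock list (31.6%), which belong to 5 of the 14 clock genes with one in the table. The TAGGTCA letters were in 2.61% of all promoters and, within this list, in that of Arntl. Promoters are shown for the called clock genes that held these letters, the falling Ciart and Tef and the rising Arntl. The E-box letters were also in promoters of Bhlhe41, Cry1 and Per1, which were not called, and not in that of the falling Hlf. Ciart, at chr3:95882179-95882478 on the minus strand, has E-box letters at 3 places, 2 of them 58 and 44 bases before its start. Tef, at chr15:81802423-81802722 on the plus strand, has them at 1 place before its start. Arntl, at chr7:113207261-113207560 on the plus strand, has the TAGGTCA letters 31 bases after its start. Capitals mark these letters, read 5′ to 3′.
Ciart: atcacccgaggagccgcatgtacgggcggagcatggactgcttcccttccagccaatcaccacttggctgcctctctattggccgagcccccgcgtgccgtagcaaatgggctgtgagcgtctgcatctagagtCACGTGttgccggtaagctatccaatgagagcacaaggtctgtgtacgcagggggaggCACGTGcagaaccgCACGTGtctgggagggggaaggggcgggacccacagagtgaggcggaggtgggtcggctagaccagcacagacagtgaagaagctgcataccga
Tef: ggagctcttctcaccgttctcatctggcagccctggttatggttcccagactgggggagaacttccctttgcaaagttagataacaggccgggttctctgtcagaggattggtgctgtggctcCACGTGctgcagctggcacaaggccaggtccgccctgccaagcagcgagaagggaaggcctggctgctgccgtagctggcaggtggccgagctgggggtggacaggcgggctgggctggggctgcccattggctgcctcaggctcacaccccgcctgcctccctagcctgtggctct
Arntl: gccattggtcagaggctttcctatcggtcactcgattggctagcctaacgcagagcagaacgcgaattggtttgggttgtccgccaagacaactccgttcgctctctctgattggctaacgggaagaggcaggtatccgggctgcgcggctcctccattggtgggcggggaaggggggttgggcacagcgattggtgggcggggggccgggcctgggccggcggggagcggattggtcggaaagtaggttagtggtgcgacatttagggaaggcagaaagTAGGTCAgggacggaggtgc

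The genes with the largest folds outside the lists were of several kinds. Among those with at least 10 CPM after MI, Saa3, an acute-phase protein of macrophages and stromal cells, was at 0, 0.0367 and 0.119 CPM in sham and 34.7, 22.9, 71.1 and 28.1 CPM after MI. Sprr1a, a cross-linked envelope protein that injured cardiomyocytes also make, was at 0, 0.147 and 0.0794 CPM in sham and 15.9, 55.8, 50.5 and 67.7 CPM after MI. Both were at or near 0 in sham. Slfn4, a myeloid gene induced by interferon, was at 0.0852, 0.294 and 0.198 CPM in sham and 45.6, 11, 19.5 and 22 CPM after MI (log2 fold change 6.92 ± 0.69 (SE), adjusted p = 0.000249), and Cd300lf, an inhibitory receptor of myeloid cells, rose from 3 counts over the sham mice, a ratio of 317 (95% exact interval 108 to 1537). Saa3, Sprr1a, Slfn4 and Cd300lf passed the filter only through the MI mice and so had to be higher there. Ptx3, a soluble pattern recognition protein, was at 0.554, 0.147 and 0.318 CPM in sham and 13.2, 8.22, 50.4 and 18.7 CPM after MI, highest in A128. Ptx3 also missed the threshold without A129 (adjusted p = 0.0106). Saa3 (from 9.42 to 10.65 without S3), Sprr1a (from 9.15 to 10.02 without S2) and Ptx3 (from 6.08 to 5.32 without A128) depended on single mice for the size of the log2 fold change. Few sham counts of Saa3 and Sprr1a remain then, so that their fitted values also depend on the prior count.

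Among the largest falls were muscle genes. Clcn1, the chloride channel of skeletal muscle, was at 17.9, 12.8 and 20 CPM in sham and 0.825, 2.42, 2.22 and 1.28 CPM after MI, the largest fall of the genes with at least 10 CPM in sham (log2 fold change -3.29 ± 0.31 (SE), adjusted p = 0.000181). Mylk4, a myosin light chain kinase of heart muscle, was at 433, 475 and 442 CPM in sham and 84.3, 116.4, 33.6 and 41.1 CPM after MI (log2 fold change -2.71 ± 0.39 (SE), adjusted p = 0.00105), and Ky, a protease-like protein of the sarcomere, was at 28.8, 24.6 and 25.8 CPM in sham and 3.47, 6.02, 5.39 and 2.59 CPM after MI. Cyp26b1, which degrades retinoic acid, fell by 3.17 ± 0.36 (SE) on the log2 scale. Itgb6, the integrin chain that can activate TGF-beta, was at 18.3, 18.1 and 16.1 CPM in sham and 2.56, 8.61, 2.29 and 3.41 CPM after MI, with A127 above the other MI mice (log2 fold change -2.04 ± 0.40 (SE), adjusted p = 0.0043). Itgb6 was no longer called without S1, S2 or S3 (adjusted p up to 0.0215). Itgb6 without A128 (0.0106) and A129 (0.0295) also missed the threshold, with the adjusted p in brackets. Itgb6 (from -2.04 to -2.67 without A127) depended on single mice for the size of the log2 fold change.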

How the data were processed

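The deposited file holds raw counts per gene for all 11 libraries, which the authors made from poly(A)-enriched, strand-specific libraries. Per the labels and the study's methods, demultiplexing used bcl2fastq 2.20.0, alignment to mm10 used GSNAP and counting of uniquely aligned reads used featureCounts 2.0.1. The strand setting of the counting was not given in the sources used here. The file lists 55513 identifiers, 92 of which are spike-in controls that were left out of library sizes and tests.

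Counts of the 4 MI and 3 sham libraries were filtered with filterByExpr (minimum count 10), scaled by TMM and tested with edgeR 4.0.16 (robust quasi-likelihood F-test, two-sided, R 4.3.3), with Benjamini-Hochberg adjustment over all 17117 genes tested, a threshold of 0.01 and no covariate. No batch is labelled. The mouse codes name separate animals. Genes with 1 to 3 sham counts are given as ratios of summed counts with 95% exact intervals, which cover counting error only. DESeq2 1.42.0, limma-voom (limma 3.58.1), other scalings and filters, a looser threshold, all 11 libraries and leaving out each mouse were alternatives. On simulated counts edgeR recovered 152 of 196 changed genes, 91 of 96 among those changed 4-fold, with 1 false call in all.

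Named genes were the study's 4 genes, the 12 highest and 12 lowest folds with at least 10 CPM and no overlap, the 10 largest differences of CPM in each direction, for each of 56 lists its 4 most abundant and its most raised and most lowered members, and 10 genes most variable among the MI mice. Of the 188 genes given with values, 36 fell outside this rule and were chosen after their values were seen. Some genes that the rule names are not reported here. Members and lists were chosen with earlier results of these data known.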

Additional observations from a re-analysis of the deposited data

Results flagged for a closer look

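Among the 4 MI mice, 254 sets of values were examined for a mouse standing apart, and in 15 the gap between the extreme mouse and its nearest neighbour, as a share of the whole range, exceeded Dixon's 95% critical value for 4 samples. Chance gives about 1 in 20 such sets, which is near the share found here, and the sets are not independent. A129 was the mouse apart for the first principal component (0.92), the share of counts in nuclear oxidative phosphorylation subunits (0.8996), the mean level of the fibrinolysis and coagulation list (0.876), and the CPM of Rpl3l (0.944), Pdgfrb (0.905), Plaur (0.868), Itgam (0.856), Tgfb1 (0.85), Pfkm (0.842), Mmp9 (0.832) and Slc16a3 (0.8292). It was lowest for Rpl3l, Pfkm and the oxidative phosphorylation share and highest for the others. A128 was apart for the mean level of the MHC class II list (0.8395), where it was lowest, and for Il15 (0.861), where it was highest. A105 was highest and apart for Atf3 (0.865) and Actc1 (0.831).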

How the results depend on the processing

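None of the 3858 called genes changed sign under the alternatives run. Against 2215 genes higher after infarction and 1643 genes lower after infarction, library size alone as the scaling gave 3330 and 708, an adjusted p below 0.05 gave 3687 and 3145, and limma-voom 1938 and 1663. DESeq2 gave 2906 and 2185, but it started from 31308 genes, without the filter on low counts used here. By default it leaves out genes of low mean count when p is adjusted. Started from as many genes, edgeR without any filter gave 2472 and 1869. Leaving out each mouse gave 922 to 2288 higher and 565 to 1763 lower, the lowest counts coming without a sham mouse. Of 140 named genes called with all mice, 47 to 50 were not called without a sham mouse and 4 to 19 without an MI mouse. Some uncalled genes changed sign. With library size alone the log2 fold change was 0.178 for Mef2a, 0.118 for Mef2d, 0.0919 for Mmp2, 0.178 for Cxcl12, 0.133 for Psap, 0.0663 for Pdgfrb and 0.178 for Adam17. With single mice left out it ran from -0.0229 to 0.2498 for Cd36 (below 0 without A105 and without A128), from -0.0117 to 0.214 for Cat (A128), from -0.104 to 0.0192 for Adam17 (A128), from -0.101 to 0.0175 for Mef2a (A129), from -0.0132 to 0.104 for Pkm (A129) and from -0.022 to 0.0897 for Pecam1 (A129). The difference of the red blood cell share ran from -0.015 to 0.0953 percentage points, negative without A105. As a share of all gene counts, nuclear oxidative phosphorylation subunits differed by -0.388 percentage points (exact permutation p = 0.0571, adjusted p = 0.0666 over 7 classes). As a share of counts outside the mitochondrial genome, they differed by -0.711 percentage points (exact permutation p = 0.0286, not adjusted). The first principal component held 76.6% of the variance over all genes. No paired analysis was possible because the mouse codes of the groups share no numbers. Genes with 3 or fewer counts over the sham mice are given by their counts, since fitted fold changes depend on the prior count there. The cause of the other shifts was not tested.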

Other observations

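Several noncoding RNAs changed along with the genes described above. H19, an imprinted RNA of fetal growth, was at 19.4, 19.6 and 20.1 CPM in sham and 56.2, 62.2, 91.3 and 119.2 CPM after MI (log2 fold change 2.06 ± 0.25 (SE), adjusted p = 0.000566), highest in A129 and well above sham in every MI mouse. Dnm3os, an RNA of developing mesenchyme and the precursor of microRNAs of the miR-199a and miR-214 families, was at 2.73, 2.64 and 2.5 CPM in sham and 6.19, 8.84, 8.3 and 16 CPM after MI (log2 fold change 1.90 ± 0.31 (SE), adjusted p = 0.00188). Neat1, the scaffold RNA of nuclear paraspeckles, was at 660.4, 658 and 762 CPM in sham and 1687, 1298, 1381 and 811 CPM after MI (log2 fold change 0.90 ± 0.22 (SE), adjusted p = 0.00977), and A129 was the lowest MI mouse. Mhrt, a heart RNA on chromosome 14 (54968678 to 54974349, mm10) that overlaps Myh7 on the opposite strand, was at 77.3, 81.3 and 97.5 CPM in sham and 32.5, 45.4, 20.2 and 22.1 CPM after MI and fell in every MI mouse (log2 fold change -1.51 ± 0.25 (SE), adjusted p = 0.00225). The libraries were strand-specific, but the strand setting of the counting was not given, so that reads of Mhrt and Myh7 cannot be told apart with certainty. Dnm3os and Neat1 were no longer called without S1, S2 or S3, and Mhrt without S1 or S3 (adjusted p up to 0.0462, Neat1 without S1). Neat1 without A105 (0.0171) and A127 (0.0225) and A128 (0.0202) and Mhrt without A129 (0.0114) also missed the threshold, with the adjusted p in brackets.

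Markers of the epicardium, the outer cell layer of the heart, had 4 of 7 members called higher and none lower (median 1.06). Aldh1a2, which makes retinoic acid in activated epicardium, was at 7.62, 6.09 and 4.76 CPM in sham and 38.8, 54.3, 64.4 and 75.1 CPM after MI (log2 fold change 3.24 ± 0.25 (SE), adjusted p = 9.46e-05). Wt1, the transcription factor of epicardial cells, was at 4.73, 4.26 and 5.36 CPM in sham and 10.6, 11.6, 7.97 and 9.71 CPM after MI (log2 fold change 1.06 ± 0.16 (SE), adjusted p = 0.000948), whereas Upk3b, a surface protein of resting mesothelium, was at 16.9, 10.6 and 15.4 CPM in sham and 8.58, 12.9, 6.27 and 8.36 CPM after MI with an adjusted p of 0.056. Aldh1a2 rose while Cyp26b1, which degrades its product, fell. Cdh19, a cadherin of Schwann cells, was called lower (log2 fold change -0.75 ± 0.14 (SE), adjusted p = 0.00274). Of 1814 processed pseudogenes tested 236 were called higher and 31 lower, where 12.9% and 9.6% of all genes tested were. The authors counted uniquely aligned reads, so that the counts of such copies and of their parent genes rest on the reads that set them apart. Cdh19 was no longer called without S1 or S3 (adjusted p up to 0.0192).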
